A study of Mus musculus with 7 samples.

Results

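The genes described here encode the muscle acetylcholine receptor and the proteins that gather it at the neuromuscular junction. They were 10 genes, Chrna1, Chrnb1, Chrnd, Chrng, Chrne, Musk, Rapsn, Lrp4, Dok7 and Agrn, taken by a rule that goes by gene name and uses no measured value. Every array probe carrying one of these names was taken, which gave 13 of the 55681 probes and 10 of the 36406 names on the array. RNA came from satellite cells, the resident stem cells of skeletal muscle, of male C57BL/6 mice in resting muscle. Of the 7 arrays, 4 were geriatric, from animals 28, 28, 29 and 30 months old, and 3 were young, from animals 2, 2 and 3 months old. All cells had been sorted by flow cytometry as positive for integrin α7 and CD34 and as negative for CD31, CD45, CD11b and Sca1, and no mouse carried an engineered allele or received a treatment, as far as the labels say. Geriatric replicates 1 and 2 shared a sample name in their descriptions, and 95.4% of their probes differed by no more than 2 combined errors, a share of 59.6% to 67.0% in any other pairing of arrays. They were therefore averaged and counted as 1 sample, which left 3 geriatric and 3 young samples. The titles speak of biological replicates but do not tell 1 mouse from several pooled mice, so the p-values below reflect only how much these samples differed among themselves.

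At the junction, acetylcholine released by the motor nerve opens a channel of alpha1, beta1, delta and epsilon subunits in the muscle membrane. In fetal and denervated muscle a gamma subunit takes the place of epsilon, and when innervation is mature the subunit genes are transcribed mainly by the nuclei under the nerve ending. Agrin, secreted by the nerve, binds the receptor LRP4, which activates the kinase MuSK with the help of the adaptor DOK7, and rapsyn then clusters the channels. Away from the nerve, myogenic transcription factors such as MyoD and myogenin drive the subunit genes through E boxes (CANNTG) in their promoters, and GA-binding protein drives synaptic transcription through the N box (CCGGAA).

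The promoters of 3 subunit genes are printed because they carry these elements next to the start of transcription and because the alpha1, gamma and epsilon genes represent the pan-muscle, fetal and adult forms. Each window is the 250 bases before the RefSeq start on GRCm38.p6, written on the strand of the gene, with E boxes and N boxes in capitals. Chrna1 (chr2:73580339-73580588, minus strand) held 3 E boxes, Chrng (chr1:87205561-87205810, plus strand) 3, and Chrne (chr11:70619195-70619444, minus strand) 1 E box and 1 N box.
Chrna1: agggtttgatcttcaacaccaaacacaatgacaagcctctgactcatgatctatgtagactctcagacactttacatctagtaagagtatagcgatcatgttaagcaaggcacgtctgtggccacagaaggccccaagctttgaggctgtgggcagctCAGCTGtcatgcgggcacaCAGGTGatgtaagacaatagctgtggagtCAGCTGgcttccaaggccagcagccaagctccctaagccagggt
Chrng: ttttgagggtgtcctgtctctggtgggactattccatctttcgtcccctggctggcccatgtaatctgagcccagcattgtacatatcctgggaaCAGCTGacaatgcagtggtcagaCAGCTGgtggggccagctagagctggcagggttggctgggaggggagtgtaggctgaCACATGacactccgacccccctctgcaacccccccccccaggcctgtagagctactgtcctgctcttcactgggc
Chrne: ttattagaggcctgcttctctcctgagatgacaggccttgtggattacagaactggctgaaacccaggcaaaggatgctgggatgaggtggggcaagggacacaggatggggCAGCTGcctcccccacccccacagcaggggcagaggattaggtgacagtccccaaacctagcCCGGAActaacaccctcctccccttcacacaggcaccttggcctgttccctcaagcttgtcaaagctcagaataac
Of these E boxes, 2 in Chrna1, 2 in Chrng and 1 in Chrne read CAGCTG, which is its own reverse complement. Among 32851 promoter windows of the same length, 66.2% held CANNTG at least once, 13% held CAGCTG, 1.26% held CAGCTG in 2 or more places, and 12% held CCGGAA on either strand. Windows were found for 7 of the 10 genes, all 7 of them had at least 1 E box in a window, and 1, Chrne, had the N box. Dok7 and Agrn had 2 windows each, of which 1 held no E box. The count is thus by gene, while the percentages are by window. A match is a string of letters and was not tested as a binding site. Positions of the array probes given below are on mm9, and their place in coding or untranslated sequence was not annotated here.

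The sorted cells of both ages carried a partial junction gene set. Of the 10 genes, 7 had a signal well above background on all 7 arrays (Chrna1, Chrnb1, Chrng, Musk, Rapsn, Lrp4 and Agrn), Chrne and Chrnd were well above it on some arrays, and Dok7 on none. Levels below are log2 of the background-subtracted signal relative to the 75th percentile of the array, and signals are in intensity units. A gene was tested when some probe of it reached well above background on 3 or more arrays, which 8 of the 10 genes met. None of the 8 passed an adjusted p of 0.05 in limma, where 0.0256% of 27391 tested features passed (0.011% higher and 0.0146% lower in geriatric cells). Of the 8, 0 had an unadjusted p below 0.05, against 7.23% of all features. Among them, 3 were higher and 5 lower in geriatric cells, with a median log2 difference of -0.04, beside -0.0024 over all features. For 1 gene, Lrp4, all geriatric samples lay above all young samples, as they did for 7.18% of features, and for none did they all lie below, as they did for 5.65%.

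**Figure D1:**
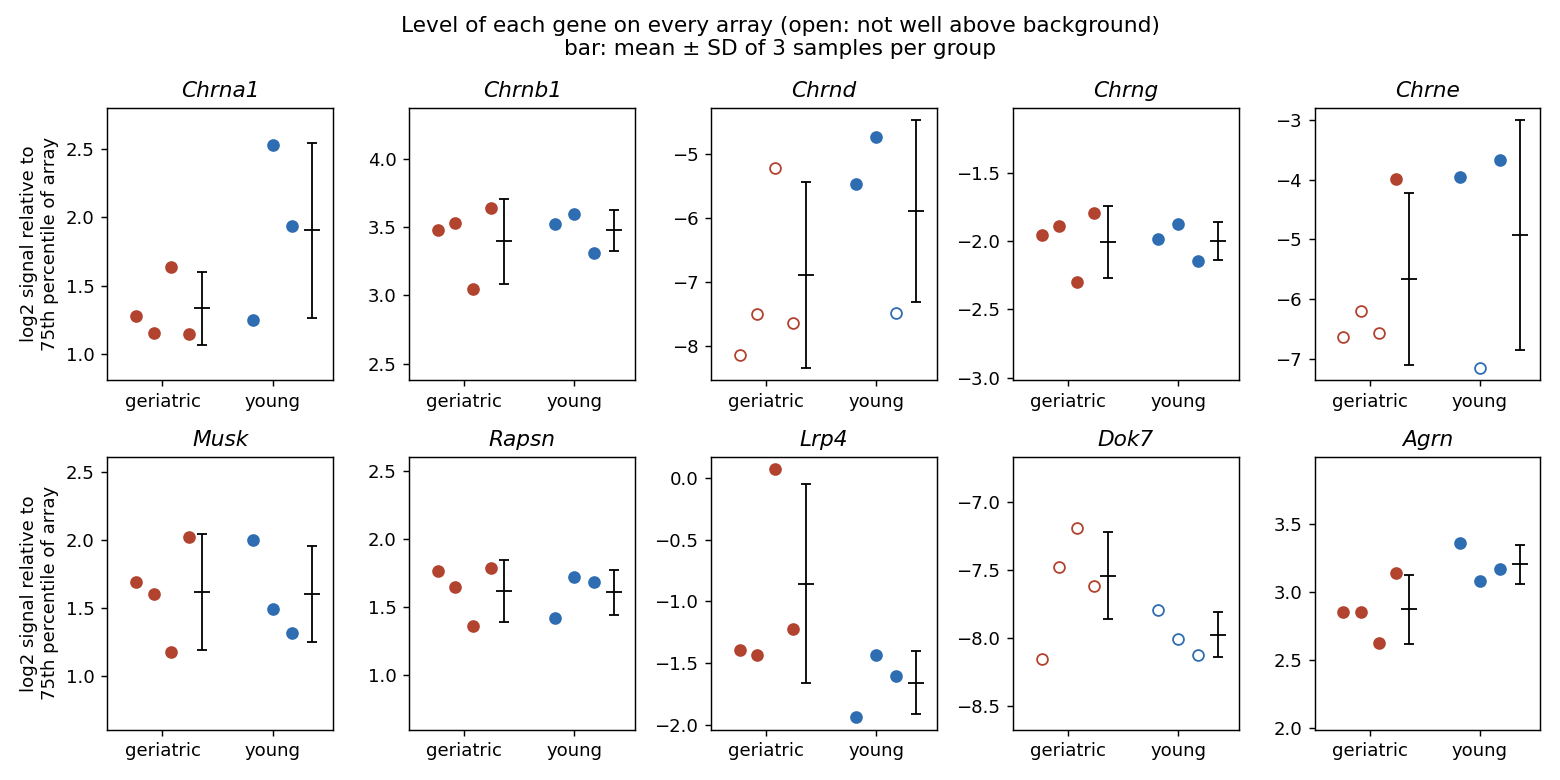
Level of each of the 10 genes on every array (y axis: log2 signal relative to the 75th percentile of the array), geriatric arrays 1 to 4 in red and young arrays 1 to 3 in blue. Open points were not well above background, and bars give the mean ± SD of 3 samples per group. Lrp4 is the one gene in which the groups do not overlap, and geriatric replicate 3 stands above the rest of its group there.

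Chrna1 encodes the alpha1 subunit, which forms the principal face of the acetylcholine binding site. Its brighter probe (chromosome 2, 73404112 to 73404171, minus strand) gave signals of 3840, 3157, 4934 and 2935 on geriatric arrays 1 to 4, against 3433, 8831 and 6171 on young arrays 1 to 3. Young replicates 2 and 3 were above every geriatric array, while young replicate 1 lay within the geriatric range. The level averaged 1.33 ± 0.27 in geriatric and 1.91 ± 0.64 in young cells (SD, n = 3 samples each). The log2 difference of -0.57 (SE 0.36, 95% interval -1.46 to 0.31) did not pass in limma (adjusted p = 0.803). Leaving out young replicate 1 made it -0.90 and leaving out young replicate 2 made it -0.26, so that the size rested on which young samples were counted. The dimmer probe (73401389 to 73401448) read 1565, 1359, 1793 and 1623 in geriatric and 778, 3549 and 2292 in young cells, with a difference of -0.14 (SE 0.54, limma adjusted p = 0.978). On both probes young replicate 2 was the highest array, and on the dimmer one young replicate 1 was the lowest.

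Chrnb1, the beta1 subunit shared by the fetal and the adult channel, had group means close to each other. Its probe of 60 bases runs over a longer stretch of the genome and so crosses an intron (chromosome 11, 69598674 to 69599242, minus strand). It read 17639, 16377, 13081 and 16627 in geriatric cells, against 16656, 18473 and 15977 in young cells. The groups overlapped, with geriatric replicate 3 below all other arrays. The level averaged 3.40 ± 0.31 in geriatric and 3.48 ± 0.15 in young cells, a difference of -0.08 (SE 0.22, 95% interval -0.61 to 0.45, limma adjusted p = 0.965).

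Chrng, the gamma subunit of the fetal channel, was well above background on every array of both ages. Its probe also crosses an intron (chromosome 1, 89106072 to 89106353, plus strand), and its sequence is printed because it identifies which subunit transcript was read.
Chrng probe: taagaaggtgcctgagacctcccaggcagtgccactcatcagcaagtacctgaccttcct
The signals were 409, 384, 322 and 384 in geriatric cells and 366, 418 and 363 in young cells. The ranges lay over each other, and geriatric replicate 3 was again the lowest. Levels of -2.0 ± 0.26 in geriatric and -2.0 ± 0.14 in young cells gave a difference of -0.0031 (SE 0.20, 95% interval -0.50 to 0.49, limma adjusted p = 0.999).

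Chrne, the epsilon subunit that replaces gamma in the adult channel, was near the limit of the array. It was well above background on 1 of 4 geriatric and 2 of 3 young arrays. Signals were 15.9, 19.3, 16.7 and 83.5 in geriatric cells, against 92.7, 10.72 and 126.3 in young cells. Both groups thus held bright and dim arrays, and the geriatric values lay within the young range. The difference was -0.73 (SE 1.16, 95% interval -3.59 to 2.13, limma adjusted p = 0.929), from levels of -5.66 ± 1.45 in geriatric and -4.93 ± 1.93 in young cells. It was -1.84 without young replicate 2, -1.57 without geriatric replicate 4, -0.35 without geriatric replicates 1 and 2 together, -0.28 without geriatric replicate 3, -0.25 without young replicate 1 and -0.10 without young replicate 3. With the authors' values and with normexp background correction it was -0.28 and -0.27. At this signal no difference of Chrne was detectable.

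Chrnd, the delta subunit and the neighbour of Chrng on chromosome 1, was not tested. Its probe (89096585 to 89096644, plus strand) was well above background on 0 of 4 geriatric and 2 of 3 young arrays. It read 5.61, 7.83, 42.6 and 6.66 in geriatric cells, against 32.7, 57.9 and 8.99 in young cells. The lowest signal that counted as well above background ran from 25.5 to 48.1 over the arrays, so the geriatric value of 42.6 lay below the limit of its own array. No fold is given, because the bound against that limit did not exceed 1.

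Agrn encodes agrin, which muscle cells also make in forms that do not cluster receptors. Its brighter probe (chromosome 4, 155546878 to 155546937, minus strand) is printed because it shows which stretch of this long transcript was read.
Agrn probe: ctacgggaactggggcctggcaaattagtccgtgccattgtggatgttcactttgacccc
It read 11454, 10269, 9778 and 11673 in geriatric cells, against 14833, 12911 and 14456 in young cells. Every geriatric signal was below every young signal before scaling. After scaling the groups overlapped, since geriatric replicate 4 at 3.13 stood above young replicate 2 at 3.08. The level averaged 2.87 ± 0.25 in geriatric and 3.20 ± 0.14 in young cells, a difference of -0.33 (SE 0.20, 95% interval -0.82 to 0.16) that did not pass in limma (adjusted p = 0.793). The difference was -0.21 without geriatric replicate 3. The dimmer probe (155539415 to 155539474) read 2591, 2337, 2775 and 2310 in geriatric and 2543, 3051 and 3835 in young cells. Its scaled levels were 0.77 ± 0.05 in geriatric and 1.02 ± 0.22 in young cells, lower in all geriatric samples by a narrow margin, with a difference of -0.25 (SE 0.19, limma adjusted p = 0.843 over all probes). Both probes of Agrn had the same sign, and neither passed.

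**Figure D2:**
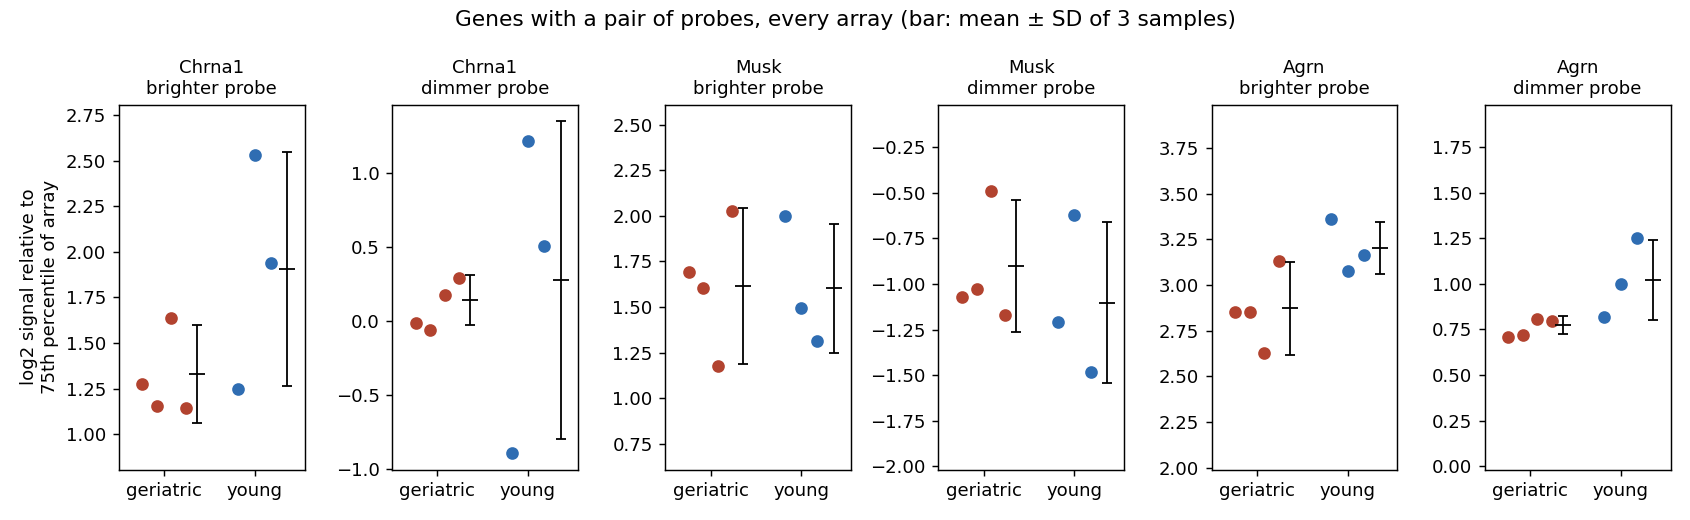
Brighter and dimmer probe of Chrna1, Musk and Agrn on every array (y axis: log2 signal relative to the 75th percentile of the array), geriatric in red left of young in blue, with the mean ± SD of 3 samples per group. Both probes of Chrna1 and of Agrn have a lower geriatric mean, both Musk probes a slightly higher one, and no probe passed the test.

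Lrp4, the agrin receptor in the muscle membrane and an inhibitor of Wnt signalling in other tissues, had the smallest unadjusted p of the 8 tested genes (0.111). Its probe (chromosome 2, 91353566 to 91353625, plus strand) read 601, 524, 1661 and 570 in geriatric cells, against 376, 564 and 529 in young cells. Geriatric replicate 3 had the highest signal by far, and the other geriatric arrays were close to young replicates 2 and 3. After scaling, the lowest geriatric sample, the averaged one at -1.42, lay just above young replicate 2 at -1.44. The level averaged -0.86 ± 0.81 in geriatric and -1.66 ± 0.26 in young cells, a difference of 0.80 (SE 0.43, 95% interval -0.25 to 1.86, limma adjusted p = 0.763). Without geriatric replicate 3 it was 0.34 (limma adjusted p = 0.865). Within the array row that held all 3 young arrays and geriatric replicate 1, the difference was 0.26. With the row as a block it was the same value, since the other row held no young array.

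The named genes whose levels most resembled those of Lrp4 over the 6 samples were Pcdhb7, a clustered protocadherin, Col14a1, a collagen of connective tissue, and Lamp2, a lysosomal membrane protein. Pearson's r with Lrp4 was 0.993, 0.993 and 0.983, the highest among 14216 named genes searched. Without geriatric replicate 3, the sample farthest from the median, r was 0.944, 0.990 and 0.899. Leaving out young replicate 1 as well gave 0.874, 0.968 and 0.492, so the likeness of Lamp2 rested on these samples. Col14a1 was read at -5.52 to -4.65, near the lowest levels that counted as well above background on the arrays (-5.98 to -5.04). These likenesses are descriptions over 6 samples that shared array, labelling and scaling.

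Musk encodes the kinase through which agrin acts. Its brighter probe spans an intron (chromosome 4, 58386538 to 58390272, plus strand) and read 5118, 4317, 3578 and 5413 in geriatric cells, against 5768, 4309 and 4007 in young cells. The groups covered almost the same range. Levels of 1.62 ± 0.43 in geriatric and 1.60 ± 0.35 in young cells gave a difference of 0.01 (SE 0.30, 95% interval -0.72 to 0.75, limma adjusted p = 0.996). The dimmer probe (58387070 to 58387129) lies within the stretch that the brighter one skips, so that a transcript read by the one as spliced would lack the other. It read 753, 697, 1126 and 590 in geriatric and 626, 994 and 576 in young cells, with a difference of 0.20 (SE 0.31, limma adjusted p = 0.932). Geriatric replicate 3 was the lowest array on the brighter probe and the highest on the dimmer one.

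Rapsn, the scaffold that anchors the receptor channels in clusters, did not separate the ages either. Its probe (chromosome 2, 90885826 to 90885885, plus strand) read 5371, 4440, 4065 and 4589 in geriatric cells, against 3869, 5036 and 5163 in young cells. By signal the lowest and the second highest array were both young. After scaling, the lowest was geriatric replicate 3 at 1.36 and the highest geriatric replicate 4 at 1.79. The level averaged 1.62 ± 0.23 in geriatric and 1.61 ± 0.16 in young cells, a difference of 0.0092 (SE 0.19, 95% interval -0.47 to 0.49, limma adjusted p = 0.995). Dok7, the adaptor that MuSK needs for full activity, read 5.57 to 10.8 in geriatric and 5.78 to 6.51 in young cells at its probe (chromosome 5, 35430414 to 35430473, plus strand). All 7 values were below the limit for well above background, and the gene was not tested.

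**Figure D3:**
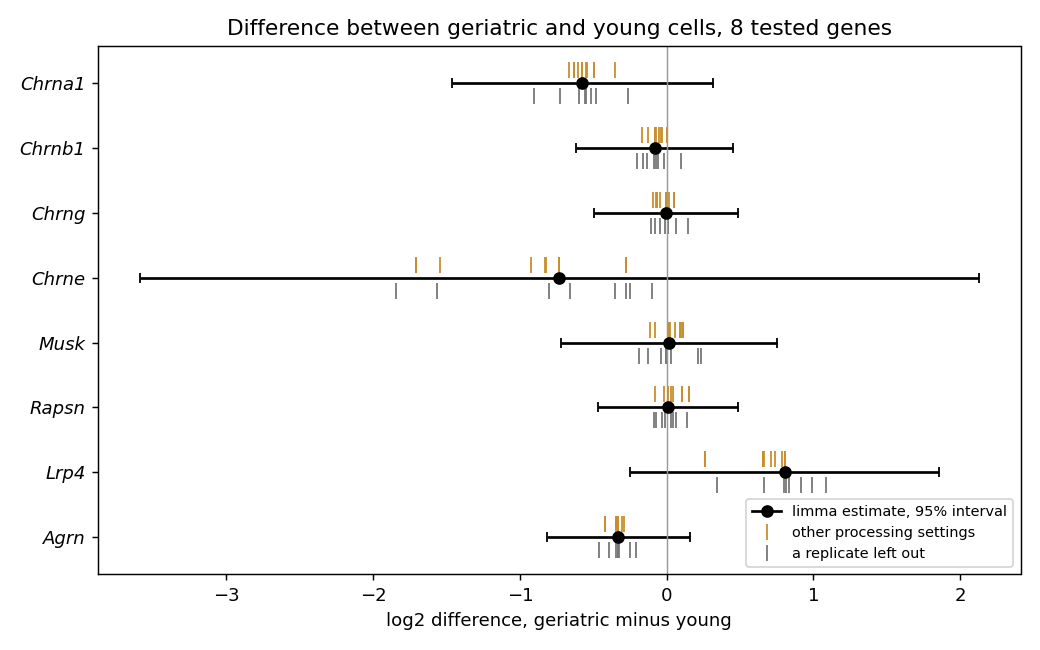
Log2 difference, geriatric minus young, of the 8 tested genes (x axis), with the limma estimate and its 95% interval in black. Orange ticks are other processing settings and grey ticks leave a replicate out. All intervals include 0, Lrp4 is above and Chrna1, Chrne and Agrn are below 0 in every setting run, and Chrnb1, Chrng, Musk and Rapsn change sign in some of them.

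The intervals bound what these 6 samples could show. For Chrnb1, Chrng, Musk and Rapsn the estimates lay between -0.08 and 0.01 and the intervals reached at most 0.75 in either direction, so a change of that size or more lies outside them. For Lrp4 and Chrna1 the intervals were wider, and for Chrne the interval reached -3.59. Row of the array and age were partly tied, since row 1 held the 3 young arrays with geriatric replicate 1 and row 2 the other 3 geriatric arrays. A fit with the row as a block took in all 7 arrays, so the RNA named alike in geriatric replicates 1 and 2 entered as 2 arrays, 1 in each row. Row 2 held no young array, so the differences of this fit set geriatric replicate 1 alone against the 3 young arrays. The geriatric arrays of row 2 entered only its estimate of spread. These differences were -0.63 for Chrna1, -0.00015 for Chrnb1, 0.05 for Chrng and -1.71 for Chrne. For Agrn, Musk and Rapsn they were -0.35, 0.09 and 0.15.

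The receptor genes were set beside myogenic factors of the kind that bind E boxes. Myog, which encodes myogenin, had levels of -4.51 in the averaged sample, -2.95 in replicate 3 and -3.55 in replicate 4 of the geriatric group, against -3.22, -1.29 and -1.24 in young replicates 1 to 3. Young replicates 2 and 3 were the highest samples for Myog and also for Chrna1, and the groups overlapped through young replicate 1. The difference of Myog was -1.76 (SE 0.67, limma adjusted p = 0.656). Tmem8c, the fusion protein myomaker, was lower in all geriatric samples, as were 5.65% of all features, with a difference of -2.39 (SE 0.54, limma adjusted p = 0.362). It reached well above background on 3 of 4 geriatric and 3 of 3 young arrays. Of the 6 tested markers of differentiating and fusing myocytes, Myog and Tmem8c among them, 4 were lower in geriatric cells. The other 2 were higher, Myh3 by 0.76 and Mybph by 0.24 (limma adjusted p = 0.921 and 0.961). Myh3 was well above background on 2 of 4 geriatric and 1 of 3 young arrays. Myod1, which encodes MyoD, differed by -0.39 (SE 0.24, limma adjusted p = 0.803) and Myf5, an early myogenic factor, by 0.25 (SE 0.25, limma adjusted p = 0.886). Young replicates 2 and 3 did not both stand above the rest for Chrng or for Myod1. The relation of the receptor genes to these factors was not tested.

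**Figure D4:**
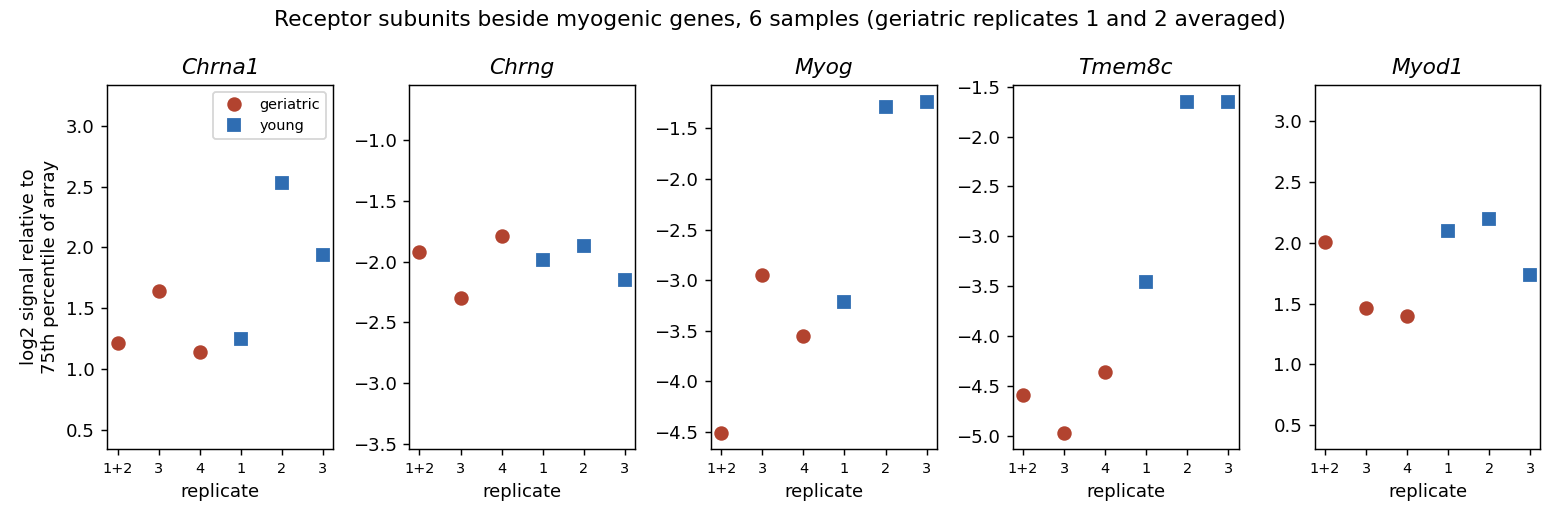
Levels of Chrna1, Chrng, Myog, Tmem8c and Myod1 in the 6 samples (y axis: log2 signal relative to the 75th percentile of the array), geriatric samples as red circles left of young samples as blue squares. Young replicates 2 and 3 are the highest samples for Chrna1, Myog and Tmem8c, and Chrng lies between -2.30 and -1.79. For Myod1, young replicate 3 at 1.73 lies below the averaged geriatric sample at 2.01.

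The list of muscle transcription factors that bind E boxes, with their partners and inhibitors, had 13 of 13 genes tested, 6 higher and 7 lower, with a median difference of -0.02 and 0 that passed. Mef2c, a partner of the myogenic factors, was well above background on 3 of 4 geriatric and 0 of 3 young arrays, so it met the filter through its geriatric arrays alone and its p is no support for a difference. Its level averaged -3.96 ± 1.36 in geriatric and -7.54 ± 0.72 in young cells (limma adjusted p = 0.334). Against the limit of the young arrays, the geriatric mean gave a bound of 3.68-fold higher. That mean rested on geriatric replicates 3 and 4, at -2.92 and -3.46. The averaged geriatric sample, at -5.51, lay close to the limits of the young arrays, -5.98 to -5.76. Myf6, which encodes MRF4, the factor most prominent in adult muscle, was at -0.66 ± 0.31 in geriatric and -1.97 ± 0.50 in young cells, a difference of 1.31 (SE 0.31, limma adjusted p = 0.396).

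Of the genes that nerve activity or denervation moves in muscle, 10 of the 13 on the array were tested, 3 higher and 7 lower, with a median of -0.11. None passed, and Myog had the smallest p, followed by Gadd45a, a stress gene induced by denervation, at 0.58 (SE 0.28, limma adjusted p = 0.738). In the neuregulin and ErbB pathway to the N box, 7 of 9 genes were tested, 4 higher and 3 lower, with a median of 0.03 and none passing. Of the 7, 2 were lower and 0 higher in all geriatric samples, beside 5.65% and 7.18% of all features. Gabpb1, a subunit of GA-binding protein, was lower in all geriatric samples, at 0.22 ± 0.14 in geriatric and 0.68 ± 0.03 in young cells (difference -0.46, SE 0.16, limma adjusted p = 0.601). Etv5, an Ets factor of subsynaptic nuclei, was also lower in all of them, at 2.26 ± 0.27 in geriatric and 2.73 ± 0.22 in young cells (difference -0.47, SE 0.22, limma adjusted p = 0.734). Gabpa, another subunit of GA-binding protein, and Etv4 of the same list were higher, by 0.27 and 0.18, with overlapping groups (limma adjusted p = 0.857 and 0.946). The receptor genes Erbb2 and Erbb3 differed by 0.30 and -0.25 (limma adjusted p = 0.921 and 0.975), and Nrg1, the neuregulin gene, was well above background on 0 of 7 arrays.

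Downstream of MuSK, all 18 listed genes were tested and split evenly, 9 higher and 9 lower, with a median of 0.01 and 0 that passed. Of these, 2 were higher and 1 lower in all geriatric samples, beside 7.18% and 5.65% of all features. Fyn, a kinase that stabilises receptor clusters, was higher in all geriatric samples (difference 0.61, SE 0.29, limma adjusted p = 0.738), and Pak1, a kinase that agrin activates, differed by 0.91 (SE 0.51, limma adjusted p = 0.778). The list of synaptic matrix, cholinesterase and scaffold genes had 12 of 15 tested genes higher and 3 lower, with a median of 0.33 and none that passed. In it 2 genes were higher and 0 lower in all geriatric samples, beside the same shares of all features. The sample medians, each gene relative to its own mean, were 0.13, -0.03 and 0.05 in geriatric samples and -0.04, 0.04 and -0.39 in young samples. Young replicate 3 was the lowest, the other young samples lay close to the geriatric ones, and without that replicate the median difference was 0.21. In it Utrn, which encodes the synaptic dystrophin relative utrophin, was at 2.91 ± 0.18 in geriatric and 2.56 ± 0.11 in young cells, with no overlap (difference 0.35, SE 0.17, limma adjusted p = 0.747). Colq, the collagen tail that anchors acetylcholinesterase, also did not overlap (difference 0.33, SE 0.22, limma adjusted p = 0.814), by a narrow margin. Sntb2, a syntrophin of the postsynaptic scaffold, and Ache, the cholinesterase gene, differed by 0.67 and 0.38 (limma adjusted p = 0.772 and 0.909).

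Among nicotinic subunits outside the muscle receptor, 6 of 11 were tested, 2 higher and 4 lower, with a median of -0.03 and none that passed. Chrna7, a subunit of neuronal receptors, had the smallest p of this list. Its levels were -0.17 in the averaged sample, -0.72 in replicate 3 and -0.79 in replicate 4 of the geriatric group, against -2.90, -0.85 and -1.88 in young replicates 1 to 3. All geriatric samples were above all young ones, as for 7.18% of all features, by a narrow margin over young replicate 2. The difference was 1.32 (SE 0.53) with an unadjusted limma p of 0.0498 and an adjusted p of 0.687. Chrnb4 had the next smallest p, with a difference of -0.11 (limma adjusted p = 0.957), and Chrna3, Chrna5, Chrna9 and Chrnb3 were well above background on 0 of 7 arrays.

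**Figure D5:**
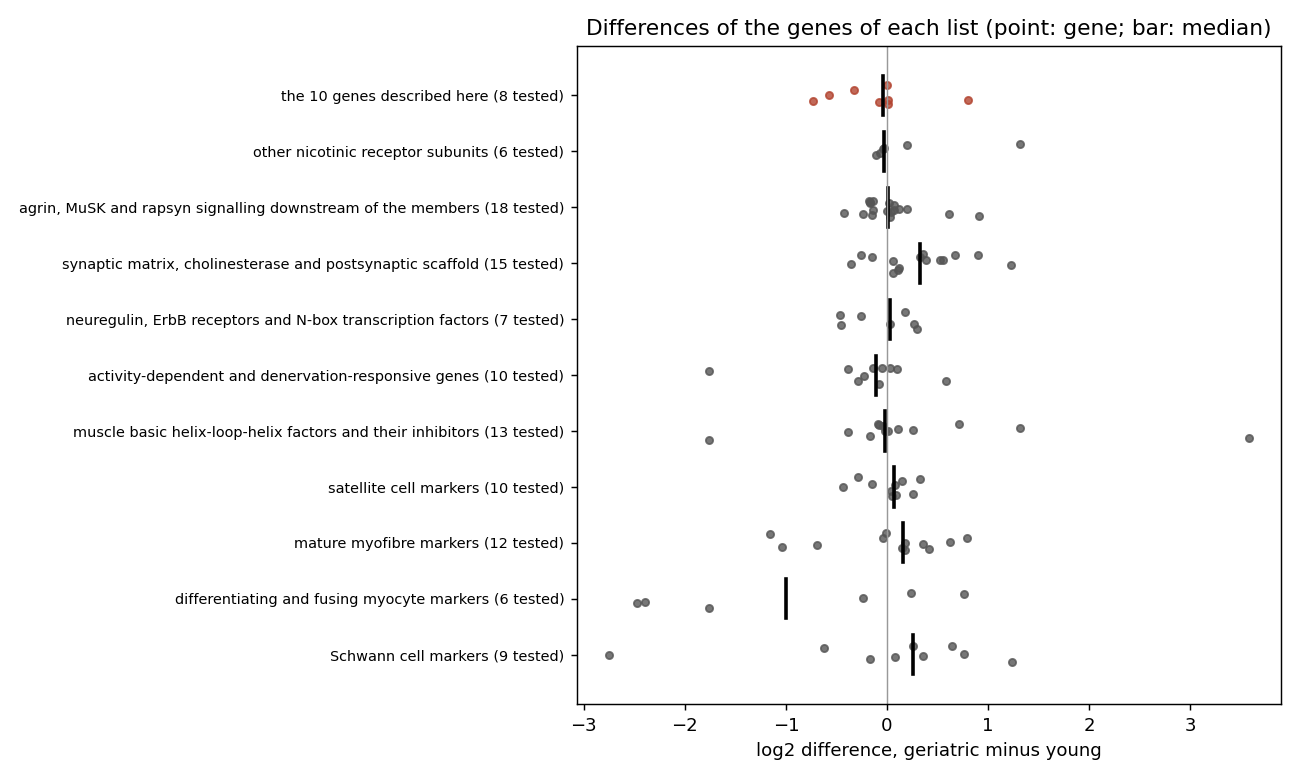
Log2 difference, geriatric minus young (x axis), of every tested gene of each list shown, with a bar at each median. Shown are the 10 genes described here, the related lists and the markers of satellite cells, myofibres, myocytes and Schwann cells. The other cell type markers are not plotted. The 10 genes, of which 8 were tested, centre on -0.04, the matrix and scaffold list on 0.33 and the myocyte markers on -0.997, and no gene in any of these lists passed.

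Markers of the cells that meet at the junction were measured in the same RNA. Satellite cell markers were well above background throughout, 10 of 10 on every array, and Pax7, the transcription factor that marks these cells, was at 4.13 ± 0.22 in geriatric and 4.09 ± 0.37 in young cells. Mature myofibre markers were present as well, with 11 to 12 of 13 well above background on geriatric and 11 to 12 on young arrays. Their summed level, in units of the 75th percentile, was 19.4 to 30.5 on geriatric and 21.4 to 25.3 on young arrays, so the ranges overlapped. Most of that sum was Atp2a1, and the rest came to 7.75 to 12.6 on geriatric and 7.10 to 9.32 on young arrays. Mean levels of the other tested myofibre markers ran from Ckm, at -4.60 in geriatric and -5.38 in young cells, to Actn3, at 2.07 and 1.45. Myocyte markers, those of differentiating and fusing cells, had 4 to 6 of 7 well above background on geriatric and 5 to 7 on young arrays, with sums of 0.509 to 1.57 on geriatric and 0.888 to 3.15 on young arrays. Their sample medians, each gene relative to its own mean, were -0.92, -0.07 and -0.57 in geriatric samples and -0.41, 1.17 and 1.56 in young samples, with the same young replicates 2 and 3 on top as for Chrna1. Of the 6 tested myocyte markers, 2 were higher and 4 lower in geriatric cells. Of the Schwann cell markers, 8 to 9 of 10 were well above background on the arrays of each age, with sums of 30.6 to 35.2 on geriatric and 27.3 to 30.3 on young arrays and Cdh19 on no array. Most of that sum was Pmp22, a myelin gene that other cells also express, and the rest came to 5.02 to 6.11 on geriatric and 5.01 to 11.0 on young arrays. Of the motor neuron markers, 4 to 6 of 12 were well above background on geriatric and 5 to 6 on young arrays, with sums of 66.0 to 90.1 on geriatric and 70.4 to 83.4 on young arrays. Nearly all of that sum was Snap25, a gene of vesicle fusion, and without it the sums were 0.904 to 2.01 on geriatric and 0.924 to 1.43 on young arrays. The defining motor neuron genes Mnx1 and Isl1 were well above background on 0 of 7 arrays. The part of these cells in the levels of the receptor and junction genes was not tested, and in RNA of sorted populations fewer cells of a type and less RNA per cell cannot be told apart.

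Markers of other cells of muscle were read in the same way. For fibro-adipogenic progenitors, stromal cells that carry the Sca1 antigen gated out in the sort, 8 of 10 tested markers were higher, with a median difference of 0.74 and sums of 58.5 to 67.4 on geriatric and 45.9 to 61.4 on young arrays. Col3a1, which differed by -0.13 (limma adjusted p = 0.946), made the largest part of these sums. Without it they were 22.8 to 40.0 on geriatric and 18.1 to 25.9 on young arrays. Pdgfra, a defining marker of fibro-adipogenic progenitors, was well above background on 0 of 7 arrays. Geriatric replicate 3, the sample highest for Lrp4, had the highest median of these markers, at 0.83 in that sample, 0.10 in the averaged geriatric sample and 0.29 in geriatric replicate 4, against -0.37, -0.16 and -0.16 in young samples. Whether this bears on Lrp4 was not tested. The endothelial markers had a median difference of 0.14, with sample medians of -0.04, -0.15 and 1.56 in geriatric and 0.02, 0.00095 and 0.24 in young samples. Geriatric replicate 4 stood apart with the 1.56, and without it the median difference was -0.61. The macrophage markers had a median difference of 0.38, with sample medians of -0.02, 0.0025 and 0.50 in geriatric and 0.07, -0.24 and -0.13 in young samples, again highest in geriatric replicate 4. Of the 10 macrophage markers on the array, 6 to 7 were well above background on geriatric and 6 to 7 on young arrays. C1qa, Lyz2 and Mrc1 were well above it on 0 of 7 arrays. The sums were 88.2 to 115 on geriatric and 91.8 to 101 on young arrays. Nearly all of that was Itgam, which encodes CD11b, an antigen gated out in the sort. Without Itgam the sums were 4.41 to 5.09 on geriatric and 4.40 to 5.03 on young arrays. The part of these cells in the levels of the junction genes was not tested, and no marker of any list passed.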

How the data were processed

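RNA of sorted satellite cells was amplified by a method made for few cells, as the labels' protocols state, and hybridised to Agilent 1-colour Cy3 arrays. The spot intensity values had been quantified by the authors with Feature Extraction 10.7.3.1 on an mm9 array design, per the file headers, with the background already subtracted and detrended in the processed signal. The deposited value table of the authors held log2 values whose median was 8.02 on all 7 arrays, and served as an alternative. Its log2 scale was checked against the mean spot signal (r of 0.9996 to 0.9998 over probes), while its background correction is not known from the labels. Its differences were nearly those of the normexp background with quantile normalization, such as -0.4943 for Chrna1 and 0.1133 for Musk in both. These settings are therefore not separate checks.

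Each processed signal was divided by the 75th percentile of its array (1330 to 1609 intensity units) and taken as log2. Spots of controls and those with an outlier flag, 124 to 229 on an array, did not enter, and no spot was saturated. Of 55681 probes, 38052 to 40999 were well above background on geriatric and 40259 to 41293 on young arrays, and the number of arrays limits the precision. Probes well above background on at least 3 of 7 arrays were kept, and each gene was read by the brightest of them, which gave 27391 features. The test was the 2-sided moderated one of limma 3.58.1 (functions lmFit, eBayes) with Benjamini-Hochberg adjustment across these features and a threshold of 0.05, run in R 4.3.3, which read the files through data.table (version 1.17.8), and tested on simulated data. Log2 differences are geriatric minus young. Where a probe was well above background on no array of 1 group, a fold is a bound against the lowest signal well above background. Plots were made by matplotlib 3.10.9 under Python 3.11.15. Same-numbered geriatric and young samples did not deviate together (r -0.04, 0.06 and 0.01), so their numbers were not taken as pairs. Promoter sequences are those of RefSeq on GRCm38.p6, and probe sequences and coordinates those of the array files.

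All 10 genes are named, as are Pax7, Myod1, Myog, Myf5, Nrg1, Erbb2, Erbb3, Ache, Colq and Utrn. From each related list the genes past the threshold are named, or else the 2 tested genes with the smallest unadjusted p, and the 3 genes most like the tested gene with the smallest p. The rule for the 10 genes uses names alone, but these genes and the lists were picked for description with earlier results of these data known. Tmem8c, Myh3, Mybph, Ckm, Actn3, Gabpa and Etv4 were named after their values were seen. So were the genes that made the largest part of a marker sum and those well above background on no array.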

Additional observations from a re-analysis of the deposited data

How the results depend on the processing

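None of the 8 tested genes passed an adjusted p of 0.05 in the main analysis or in any of 20 alternatives, leave-one-out fits included. Chrne was tested in 19 of them, as it was left out when a signal on all 7 arrays was required. The row as a block and the fit within row 1 gave the same differences. Both set geriatric replicate 1 alone against the 3 young arrays, so they are not separate checks. The difference kept its sign in each alternative for Lrp4 (0.26 to 1.08), Agrn (-0.46 to -0.21), Chrna1 (-0.90 to -0.26) and Chrne (-1.84 to -0.10). Differences near 0 turned. Chrng was at 0.0179 with 4 geriatric samples, at 0.0471 with the array row as a block and within row 1, and between -0.11 and 0.14 with replicates left out. With each array centred on its median, which moved the median of all features by about as much (-0.09), Musk was at -0.0773 and Rapsn at -0.0816. Leaving replicates out, Musk ran between -0.19 and 0.23, Rapsn between -0.0842 and 0.14, and Chrnb1 between -0.20 and 0.10. With geriatric replicates 1 and 2 left out together, Musk was at -0.0026 and Rapsn at -0.0343. With the replicate number as a block (replicate block) Musk was at -0.11 and Rapsn at -0.0186, and 0 features passed in limma, where 3553 had an unadjusted p below 0.05; the samples share only a number. The count of 7 features past the threshold was 4 with normexp, 4 with the authors' values, 2 with a signal on all 7 arrays, 64 with 4 geriatric samples, 0 with the row as a block over all 7 arrays (1633 at an unadjusted limma p below 0.05), 3 within row 1, and 0 to 8 with replicates left out (0 when geriatric replicate 4, young replicate 1 or young replicate 2 was left out, 2 when geriatric replicate 3 or young replicate 3 was, 1 without geriatric replicates 1 and 2 together; 1622 to 2146 at an unadjusted p below 0.05). Signals near the limit of the array, those of Chrnd, Chrne and Dok7, limit what can be said of these genes.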
